A study of Mus musculus with 12 samples.

Results

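The comparison was of RANKL-treated mouse small intestinal organoids grown with or without CSRM617, known as a compound that inhibits ONECUT2, and covered 6 of the 12 libraries of the series. Its members were the 3 libraries labelled RANKL+CSRM617 and the 3 RANKL libraries that share a count table with them (RANKL alone below), chosen by their labels and by no measured value. Bulk RNA-seq of total RNA depleted of ribosomal RNA was done on organoids from 1 line (line26, labelled wild type) of a female Lgr5GFPDTR/+ mouse, which carries GFP and the diphtheria toxin receptor at 1 Lgr5 allele, the gene of an intestinal stem cell receptor. Both groups were first given 3 µM CHIR99021, which blocks the kinase GSK3 and so turns on Wnt signalling, together with 1.5 mM valproic acid, a histone deacetylase inhibitor. After a day in ENR, the organoid medium with EGF, Noggin and R-spondin, both received 100 ng/mL RANKL until day 6, so that by the labels they differed in the 40 µM CSRM617 only. All libraries came from this 1 line, and the labels number them as experiments 1 to 3.

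The intestinal epithelium renews itself from Lgr5-positive crypt stem cells, whose daughters become absorptive enterocytes, with their brush border of digestive enzymes and microvilli, or secretory Paneth, goblet, enteroendocrine and tuft cells. RANKL binds its receptor RANK on epithelial cells and, through NF-kB signalling and SpiB, drives some of them to become M cells, which carry antigens from the gut lumen to lymphoid tissue below. ONECUT2 belongs to the cut homeodomain family of transcription factors, which bind DNA and act in the development of liver, pancreas and gut.

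Totals were 8669153 to 11241811 counts per library with RANKL alone and 10225102 to 14041947 with CSRM617. Epithelial markers (Epcam, Cdh1, Vil1, Krt8, Cdx2) had at least 1017 counts in every library. Of 18 markers of immune, stromal, endothelial, muscle and glial cells, 7 had no count in any library, among them Adgre1, Col3a1, Cdh5 and Sox10, and all 18 together summed to 63 to 92 counts with RANKL alone and 54 to 91 with CSRM617. The share of reads at 2 loci that collect ribosomal RNA (Gm26917 and Gm42418) was 6.44 to 6.71% with RANKL alone and 15.3 to 15.8% with CSRM617, and that of mitochondrially encoded genes was 6.04 to 6.11% and 8.61 to 11.04%. CSRM617 library 3 stood apart from the other two of its group, with the 11.04% and a weaker GC trend, and counts are given without it where they moved by at least 3 genes. Libraries 1 and 2 of RANKL alone differed by little more than counting noise (chi-square per degree of freedom 1.09 over 13738 genes). The other pairs of that group had 1.26 and 1.43, and CSRM617 libraries 1 and 2 had 1.18. CSRM617 library 3 had 5.19 against library 1 and 4.51 against library 2. The p-values therefore measure only the spread between these libraries, which may be technical.

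Of 55335 genes in the table, 14167 had enough counts to be tested, and most of them differed between the groups. In edgeR's quasi-likelihood test at an adjusted p of 0.05, 4980 genes (35.2%) were higher with CSRM617 and 5134 (36.2%) were lower, 71.4% in either direction. The fold changes followed the GC content of the transcripts. Their Spearman correlation with GC content was 0.59 across 13964 genes, and genes are not independent replicates. The median log2 fold change was -0.95 for the 944 genes under 40% GC and 0.57 for the 577 genes over 60% GC. The trend ran the opposite way in the libraries of each group: the slope per percent GC of log2 CPM around the 6-library mean was -0.028 to -0.032 with RANKL alone and 0.022 to 0.035 with CSRM617, lowest in library 3. Library preparation, RNA quality and treatment cannot be told apart as sources of this trend, because it separates the groups completely. A second fit therefore carried a smooth GC trend of each library as an offset, which brought the correlation to 0.04. It called 4568 genes higher (32.2%) and 4409 lower (31.1%).

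**Figure D1:**
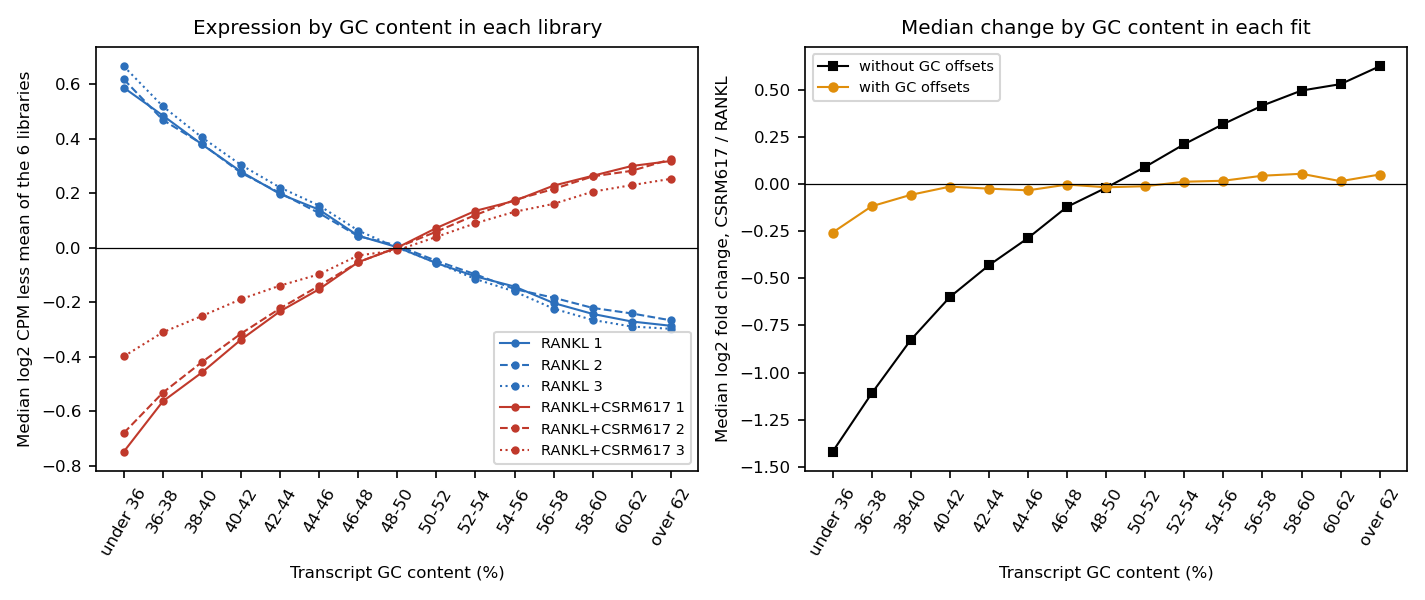
Left, the median over genes of log2 CPM less the mean of the 6 libraries, by transcript GC content, for each library of RANKL alone (blue) and of RANKL with CSRM617 (red). Right, the median log2 fold change by GC content, which ran from -1.42 to 0.62 without GC offsets (black squares) and from -0.26 to 0.05 with them (orange circles).

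The text below calls a gene higher or lower only where both fits called it in the same direction: 3516 genes (24.8%) were higher and 3321 (23.4%) were lower, 48.3% in either direction. Both fold changes were at least 2-fold for 406 higher genes (2.87%) and 453 lower genes (3.2%), 6.06% together. The shares called in both fits still followed GC content. Under 40% GC 3.81% of genes were higher and 32.2% lower, and over 60% GC 34.7% were higher and 6.07% lower. The shares over all genes, set beside list counts below, are not matched for GC content. The fits disagreed outright on 610 genes, of which 426 were lower in the first fit and higher with GC offsets and 184 the reverse. Leaving out CSRM617 library 3 left 3468 genes higher and 3130 lower. Levels are CPM, counts relative to the library's total after TMM scaling, which are not per length and are compared between groups, not between genes. Fold changes are log2 values, first without and then with GC offsets. The CPM of the groups did not overlap in 5116 tested genes that stood higher with CSRM617 and 5240 that stood lower, of 14167. A lack of overlap in a named gene was thus common. Members of a list named as its exceptions, as not called or for a motif in their promoter, and Aldh1a1, Ezr, Lct, Myo1d, Olfm4, Sis and Tff3, were chosen after their values were seen. Of the 200 named genes with coordinates, 72 overlap a gene on the opposite strand, and the sources used here do not give the strand setting of the counting. Their reads may include those of the partner. In bulk RNA, a change in the number of cells of a type and a change in RNA per cell cannot be told apart.

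**Figure D2:**
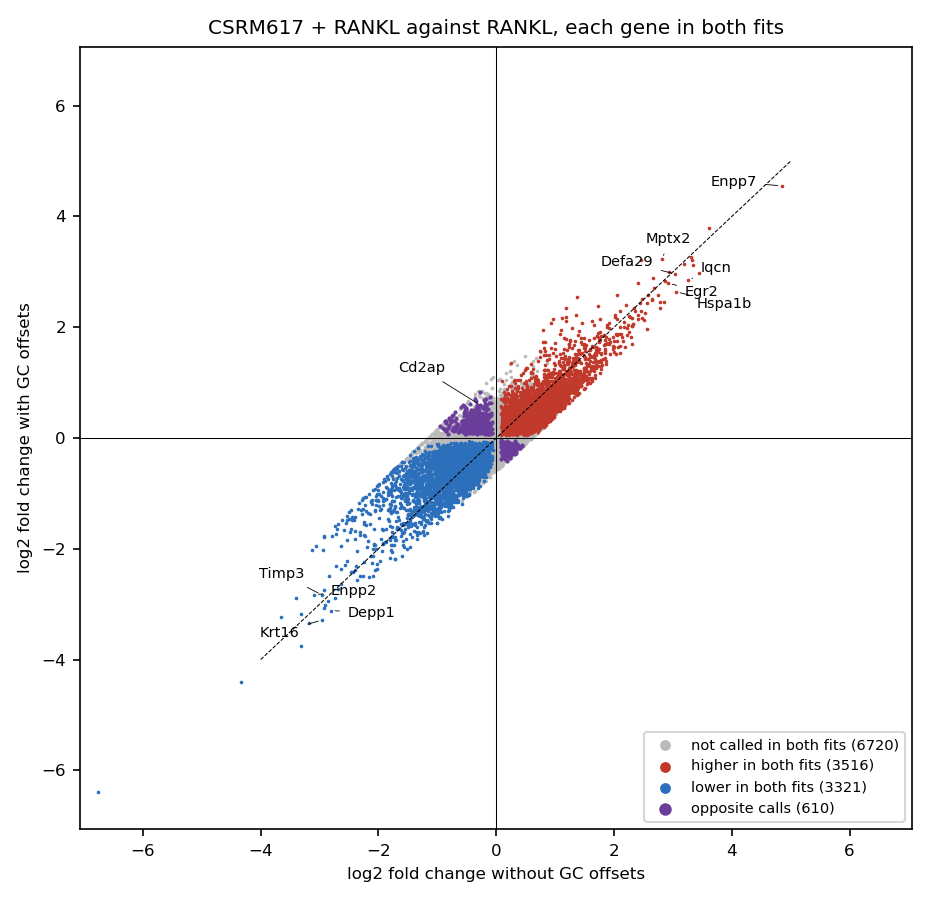
Each tested gene by its log2 fold change without GC offsets (horizontal axis) and with them (vertical axis), coloured by its calls; the dashed line marks equal values. Red and blue genes, 3516 and 3321, kept a called direction in both fits, and the 610 purple genes were called in opposite directions; the lowest point, Rassf9, had no count with CSRM617, so its fitted value is not a bound.

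The largest rise among protein-coding genes above an average log2 CPM of 2 was that of Enpp7, the intestinal alkaline sphingomyelinase that digests sphingomyelin at the brush border (chr11:118988188-118993221, GRCm38). It stood at 0.311, 0.206 and 0.240 CPM with RANKL alone and 8.87, 6.92 and 7.18 CPM with CSRM617. The groups lay far apart, and the log2 fold change was 4.85 ± 0.30 (SE; adjusted p = 7.05e-19) and 4.55 with GC offsets. Of the 12 largest rises, 5 belonged to genes that stimuli switch on quickly: Hspa1b (3.06 and 2.64), an inducible HSP70 chaperone with a nearly identical neighbouring copy, and the transcription factor genes Egr2 (2.92 and 2.80), Fosb (2.79 and 2.45), Jun (2.48 and 2.16) and Atf3 (2.45 and 2.29). Secreted host-defence genes were among them too, the alpha-defensin gene Defa29 (3.04 and 2.96) and Mptx2, a Paneth cell mucosal pentraxin (2.82 and 3.23). Rbp2, which carries retinol inside enterocytes, had 6.84, 7.11 and 6.65 CPM with RANKL alone and 42.5, 44.95 and 41.1 CPM with CSRM617, a log2 fold change of 2.65 ± 0.09 (adjusted p = 5.89e-28) and 2.50 with offsets. The rest were Hist1h2an, an H2A histone gene (2.56 and 1.97), Cdr2, known as an onconeural antigen (2.57 and 2.43), and Iqcn (3.26 and 2.85).

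Enpp2, which encodes autotaxin, the secreted enzyme that makes lysophosphatidic acid, fell the most under the same rule (chr15:54838901-54952892). Its values were 18.03, 17.1 and 18.4 CPM with RANKL alone and 2.06, 1.71 and 2.50 CPM with CSRM617. Its log2 fold change was -3.09 ± 0.15 (adjusted p = 1.03e-22) and -2.83 with offsets. The groups did not overlap, which the rule for naming it required. Timp3, a metalloprotease inhibitor of the extracellular matrix that lies inside Syn3 on the opposite strand, changed by -2.96 and -2.83. Krt16, a keratin of stressed epithelia, fell from 13.3 ± 0.706 to 1.69 ± 0.502 CPM (mean ± SD, n = 3). Aif1l, which encodes an actin-bundling protein, changed by -2.93 and -3.08 and Depp1, a target of FOXO factors, by -2.81 and -3.11; Depp1 overlaps Rassf4 on the opposite strand, and without strand information their reads cannot be told apart. Gabrp, a GABA-A receptor subunit, stood at 10.2, 9.07 and 9.77 CPM with RANKL alone and 1.41, 1.47 and 1.94 CPM with CSRM617, and Camk2a, a calcium-dependent kinase, at 21.6, 23.8 and 22.9 CPM with RANKL alone and 4.44, 5.54 and 4.11 CPM with CSRM617. Both were well below RANKL alone in all 3 CSRM617 libraries. The remaining falls were those of Rbms3, an RNA-binding protein (-2.32 and -1.75), Depdc1a (-2.50 and -1.33), Katnbl1, a katanin-related regulator of microtubule severing (-2.27 and -1.29), and the zinc finger genes Zfp938 (-2.30 and -1.29) and Zfp758 (-2.25 and -1.09). These last 4 have transcripts of 35.3 to 37.1% GC, and their falls were smaller with GC offsets.

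**Figure D3:**
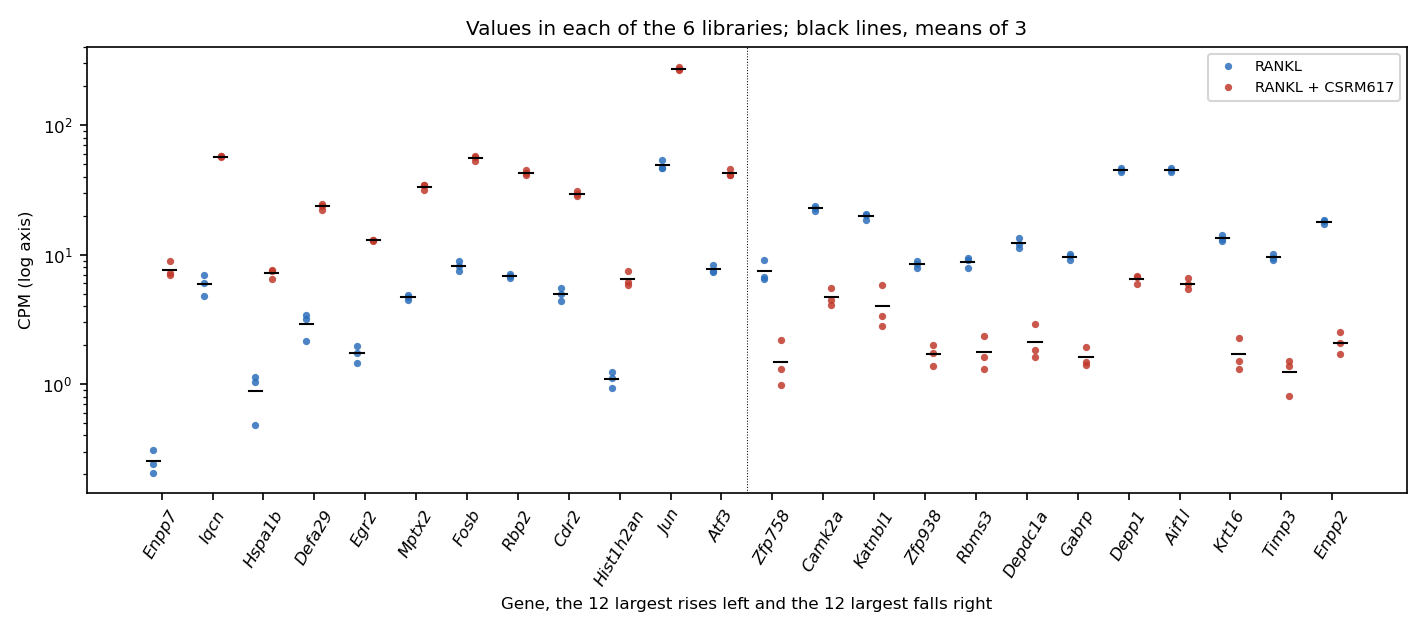
CPM in each library (log axis) for the 12 genes with the largest rises, left, and the 12 with the largest falls, right, for RANKL alone (blue) and RANKL with CSRM617 (red); black lines are means of 3. In each gene the 3 points of one group lie entirely above those of the other, as the rule for naming them required.

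Genes of the absorptive surface were mostly higher. Of the brush border hydrolases, the membrane enzymes that finish the digestion of sugars and peptides, 15 of 19 tested were higher and none was lower, against 24.8% and 23.4% of all genes, with list medians of 0.99 and 0.84 against -0.02 and -0.01 over all genes. Alpi, intestinal alkaline phosphatase, stood at 231, 230.3 and 229 CPM with RANKL alone and 497, 503 and 498 CPM with CSRM617 (1.12 ± 0.03, adjusted p = 2.68e-32; 0.82 with offsets). Its groups were each within a few percent of their mean and did not overlap. Anpep, aminopeptidase N, rose by 1.12 and 0.90 and Enpep, aminopeptidase A, by 1.49 and 1.70. Lct, lactase, changed by 2.08 and 1.89, and Sis, sucrase-isomaltase, by 0.40 and 1.04. Mme, neprilysin, was called lower in the first fit (-0.68) and higher with GC offsets (0.21).

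The cytoskeleton of the microvilli moved with them: 14 of 16 genes were higher and none was lower (medians 0.66 and 0.39). Vil1, the actin-bundling villin, stood at 440.5, 456 and 444 CPM with RANKL alone and 843, 837 and 823 CPM with CSRM617 (0.90 and 0.69). Cdhr5, a protocadherin of the links between microvillus tips, rose by 1.12 and 0.77 and Myo1a, the brush border myosin I, by 1.18 and 0.97. The smallest called changes with offsets were those of Ezr (0.08) and Myo1d (0.08). The members not called in both fits were Tmigd1, an adhesion molecule of the microvillus (-1.002 and -0.52), and Pls1, the actin-bundling fimbrin (-0.14 and 0.30).

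Lipid export genes were higher too, with 14 of 19 up and 2 down (medians 0.85 and 0.64). Apoa4, an apolipoprotein of chylomicrons, had 1199, 1222 and 1170 CPM with RANKL alone and 4456, 4433 and 4093 CPM with CSRM617, a log2 fold change of 1.85 ± 0.03 (adjusted p = 4.05e-36) and 1.45 with offsets. Apoa1 rose by 1.33 and 0.96. Mttp, which loads lipid onto apolipoprotein B, rose by 1.57 and 1.76, and Creb3l3, a transcription factor of lipoprotein genes, by 1.99 and 1.64. The 2 lower members were Cd36, a fatty acid receptor (-2.18 and -1.34), and Plin2, a lipid droplet coat protein (-0.27 and -0.42). Among 19 nutrient transporters 11 were higher and 2 lower: Slc27a4, a fatty acid transport protein, changed by 1.29 and 0.92 and the sodium-glucose cotransporter gene Slc5a1 by 0.55 and 0.61, while Slc16a1, a lactate transporter, changed by -0.68 and -0.26. Of the retinol genes 9 of 15 were higher, led by Rbp2, Adh1 (0.77 and 0.66), which oxidises retinol, and Aldh1a1 (1.87 and 2.04), which makes retinoic acid, and 3 were lower. The strongest of those falls was in Stra6, the cell-surface receptor for retinol-binding protein, which overlaps Ccdc33 on the opposite strand, at 57.8, 64.4 and 61.03 CPM with RANKL alone and 15.2, 14.9 and 15 CPM with CSRM617 (-2.02 and -2.37).

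Other lipid and drug metabolism lists were less one-sided. The fatty acid oxidation and ketogenesis list lay near the shares over all genes, 24.8% higher and 23.4% lower. Of its 18 genes 5 (27.8%) were higher, among them Acadvl, an acyl-CoA dehydrogenase (0.59 and 0.35). Another 4 (22.2%) were lower, among them the pantetheinase gene Vnn1 (-1.54 and -1.30). Of the sterol pathway genes that SREBP2 drives, 11 of 24 were higher and 3 lower. Fatty acid synthesis genes split 10 higher to 4 lower of 17, with Scd1, a desaturase, at 0.93 and 1.03. Cytochrome P450 genes, which oxidise drugs and lipids, were higher in 13 and lower in 6 of 32. Cyp1a1, the classic target of the aryl hydrocarbon receptor, rose from 4.13 ± 0.369 to 14.9 ± 0.554 CPM and Cyp4f14 from 76.4 ± 2.26 to 192 ± 2.17 CPM, whereas Cyp2c55 fell from 254 ± 8.46 to 72.5 ± 5.89 CPM.

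Paneth cell genes showed the largest list median among lists of at least 10 tested genes. Of 19 tested, 15 were higher and 1 was lower (medians 1.57 and 1.47). Lyz1, the lysozyme of Paneth cell granules (chr10:117287797-117292868), stood at 42.1, 44.3 and 46.1 CPM with RANKL alone and 173, 161 and 171 CPM with CSRM617. The log2 fold change was 1.92 ± 0.05 (adjusted p = 2.58e-33) and 1.99 with offsets, and no library of one group reached the other. All 6 tested alpha-defensins, the antimicrobial peptides of the same granules, were higher (1.57 to 3.04). Their genes are near-identical copies, so reads may have been split between them. Itln1, an intelectin that binds microbial sugars, had 99.4, 96.5 and 96.3 CPM with RANKL alone and 332, 333 and 312 CPM with CSRM617 (1.74 and 1.61). Mmp7, the protease that activates defensins, was the lower member at -0.93 and -0.87.

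Other secretory lineages changed less evenly. Of goblet cell genes 7 of 19 were higher and 5 lower, and the 3 called members with the smallest p were all higher. Muc2, the main secreted mucin, had 132, 136 and 133 CPM with RANKL alone and 259, 269 and 259.8 CPM with CSRM617 (0.98 and 0.81). Ang4, an antimicrobial ribonuclease, rose by 1.92 and 2.07. Fcgbp, a mucus protein, rose by 0.51 and 0.10, but was called lower with offsets for GC and length together (-0.11). The goblet cell marker Tff3 had fewer counts with CSRM617. Before any scaling, it had 1187, 1183 and 1394 counts with RANKL alone and 774, 998 and 917 with CSRM617. Tuft cell genes were higher in 10 and lower in 2 of 18, and without CSRM617 library 3 in 7 and 1. Plcg2, a phospholipase of tuft cell taste signalling, rose by 0.83 and 0.56 and Fyb, an adaptor protein, by 1.23 and 1.26, while Cd24a, a surface glycoprotein, changed by -1.03 and -0.61. Enteroendocrine genes were scarce, with 12 of 28 testable, of which 4 were higher and none lower. Chga, a granule protein, stood at 2.69, 3.19 and 4.49 CPM with RANKL alone and 12.9, 9.77 and 9.68 CPM with CSRM617, Chgb rose by 1.30 and 1.05, and Ghrl, the ghrelin gene, had 0.725, 0.206 and 0.641 CPM with RANKL alone and 1.95, 1.47 and 1.53 CPM with CSRM617.

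Genes of mitosis were higher with CSRM617 in 30 of 40 cases and lower in none, and their list median was larger with GC offsets (0.69 and 0.85). Mki67, the Ki-67 proliferation antigen, stood at 136, 143 and 143 CPM with RANKL alone and 312, 319 and 311 CPM with CSRM617, which gave 1.15 ± 0.03 (adjusted p = 1.24e-30) and 1.30 with offsets. Incenp, a subunit of the chromosomal passenger complex, rose by 1.52 and 1.24 and Cit, a kinase of cytokinesis, by 1.68 and 1.42. The other 10 members, among them Cdk1 (-0.10 and -0.03) and Ccnb1 (0.12 and 0.44), which form the kinase that starts mitosis, were not called in both fits. DNA replication genes, active earlier in the cell cycle, were higher in 13 and lower in 3 of 39 (medians 0.24 and 0.20): Chaf1a, a histone chaperone of replication, rose by 1.21 and 0.90, the DNA ligase gene Lig1 by 0.96 and 0.73 and the replication initiation gene Mcm10 by 0.94 and 0.96. Replication-dependent histone genes were higher in 29 and lower in 5 of 55, and in 26 and 3 without CSRM617 library 3. Many are near-identical copies whose reads may have been split. The linker histone genes Hist1h1b, Hist1h1d and Hist1h1e had 1.39, 1.00 and 1.11 without offsets and 1.06, 1.72 and 0.996 with them.

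Mitotic promoters are known for the CHR element, spelled TTTGAA or TTCGAA, which was searched on both strands in the 300-base windows around RefSeq transcription starts (250 bases before to 50 after, GRCm38.p6). Of the 40 mitosis genes 34 had a window, and 27 of these 34 (79.4%) held the element in at least 1 window, against 16.8% of the 9803 tested genes with a window and 19.2% of all 32851 windows. The share was 17.5% among genes higher in both fits and 15.9% among lower genes. The CCAAT box, which lies in many of the same promoters, was in 24 of the 34 (70.6%) against 43.4% of tested genes. Stretches before the start are shown for the 3 called mitosis genes with the smallest p that hold the CHR element there, with its letters or their reverse complement in capitals. All run 5′ to 3′ on the gene's strand.
Mki67 (chr7:135716427-135716522, minus strand): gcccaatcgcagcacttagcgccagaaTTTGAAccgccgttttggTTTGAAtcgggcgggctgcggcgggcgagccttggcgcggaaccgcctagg
Top2a (chr11:99024190-99024257, minus strand): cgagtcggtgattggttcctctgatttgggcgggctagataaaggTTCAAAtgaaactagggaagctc
Bub1b (chr2:118597978-118598073, plus strand): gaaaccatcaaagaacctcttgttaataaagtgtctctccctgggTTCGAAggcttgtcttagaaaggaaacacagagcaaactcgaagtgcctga
The changes of these genes were 1.15 and 1.30 for Mki67, 0.52 and 0.90 for Top2a, the topoisomerase that untangles sister chromatids, and 0.98 and 0.90 for Bub1b, a spindle checkpoint kinase. A match is a description of the letters and not evidence of binding.

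Immediate-early genes, which stimuli switch on without new protein synthesis, were higher in 18 of 24 and lower in 4 (medians 0.96 and 0.57). Jun (chr4:95049034-95052222) stood at 54.1, 46.7 and 47.01 CPM with RANKL alone and 272, 280.2 and 268 CPM with CSRM617, a log2 fold change of 2.48 ± 0.04 (adjusted p = 4.04e-38) and 2.16 with offsets. Fos, its partner in the AP-1 transcription factor, had 35.95, 37.4 and 34.6 CPM with RANKL alone and 171, 159 and 154 CPM with CSRM617 (2.16 and 2.01), and Fosb 8.19, 8.86 and 7.45 CPM with RANKL alone and 52.6, 56.9 and 57.8 CPM with CSRM617. Each was several-fold above RANKL alone in every CSRM617 library. The 4 lower members were Dusp4 (-0.78 and -1.11) and Dusp6 (-0.42 and -0.42), phosphatases that switch off ERK signalling, Ier3 (-0.77 and -1.04) and Myc (-0.42 and -0.64), a growth regulator. Serum response factor binds CArG boxes in promoters of this class. A CArG box was found in 3 of the 19 immediate-early genes with a window (15.8%), against 1.63% of tested genes, and the cyclic AMP response element TGACGTCA in 2 of 19 (10.5%) against 3.59%. They were searched on both strands. The CArG box of Egr2 and the 2 adjacent ones of Dusp5, a nuclear ERK phosphatase (1.14 and 0.77), are in capitals, and the remaining holder was Zfp36.
Egr2 (chr10:67537449-67537548, plus strand): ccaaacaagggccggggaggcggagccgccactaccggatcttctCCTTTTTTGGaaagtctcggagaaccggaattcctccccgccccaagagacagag
Dusp5 (chr19:53529028-53529127, plus strand): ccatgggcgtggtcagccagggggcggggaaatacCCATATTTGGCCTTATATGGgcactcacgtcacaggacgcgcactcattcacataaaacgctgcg

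Chaperones and folding enzymes of the endoplasmic reticulum, where secreted proteins fold, were higher in 13 of 21 and lower in 2 (medians 0.35 and 0.36). Calr, calreticulin, stood at 296, 306 and 300.2 CPM with RANKL alone and 605, 590.4 and 556 CPM with CSRM617 (0.96 ± 0.03, adjusted p = 3.45e-29; 0.90 with offsets). Hspa5, the chaperone BiP, had 284, 294 and 295 CPM with RANKL alone and 448, 439.7 and 455 CPM with CSRM617 (0.62 and 0.83), and Hyou1, its nucleotide exchange partner, rose by 0.93 and 0.69. The groups did not overlap in any of them. The endoplasmic reticulum stress element (ERSE), searched on both strands as CCAAT, any 9 bases and CCACG, through which ATF6 acts, was in 7 of the 18 list genes with a window (38.9%) and in 16 of the 9803 tested genes (0.163%). Each ERSE holds a CCAAT box. Of the 7, Calr, Hspa5, Creld2 (1.18 and 0.90), Hsp90b1 (0.24 and 0.58), Pdia6 (0.39 and 0.39) and Dnajc3 (0.23 and 0.63) were higher in both fits and Canx (0.06 and 0.55) was called only with offsets. The stretches of the 3 with the smallest p follow, with the ERSE in capitals.
Calr (chr8:84847030-84847138, minus strand): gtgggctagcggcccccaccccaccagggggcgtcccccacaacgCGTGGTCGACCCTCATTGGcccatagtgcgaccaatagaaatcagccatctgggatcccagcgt
Hspa5 (chr2:34771980-34772088, plus strand): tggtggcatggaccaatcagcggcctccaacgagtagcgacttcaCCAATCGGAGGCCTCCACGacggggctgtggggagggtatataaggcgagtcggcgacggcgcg
Creld2 (chr15:88819475-88819583, plus strand): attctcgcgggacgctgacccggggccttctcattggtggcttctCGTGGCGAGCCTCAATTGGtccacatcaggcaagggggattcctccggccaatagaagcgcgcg

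Among other stress lists, NRF2 targets were mostly higher and the rest were mixed. Among ATF4 targets of the integrated stress response 6 of 19 were higher and 2 lower: Atf3 had 7.36, 7.42 and 8.33 CPM with RANKL alone and 45.7, 41.1 and 41.1 CPM with CSRM617, and Ddit3, the factor CHOP, rose by 1.49 and 1.49, but Slc7a11, the cystine transporter, changed by -1.75 and -1.13. Heat shock proteins, mostly cytosolic, were higher in 6 and lower in 2 of 16. Hspa1b stood at 1.14, 1.03 and 0.480 CPM with RANKL alone and 7.46, 7.57 and 6.45 CPM with CSRM617, Hsp90ab1, a constitutive HSP90, changed by 0.45 and 0.34, and Hspe1, a mitochondrial cochaperonin, by -0.997 and -1.13. NRF2 targets, which handle oxidants, were higher in 12 and lower in 2 of 19, with Pgd of the pentose phosphate pathway up (0.62 and 0.36) and the peroxiredoxin gene Prdx1 down (-1.15 and -0.68). Mt1, a zinc-binding metallothionein, rose by 1.36 and 1.17 and Ftl1, ferritin light chain, by 0.85 and 0.43. Among p53 targets 7 were higher and 9 lower of 20, with falls in Perp, a desmosomal protein (-0.94 and -0.89), and Trp53inp1 (-1.40 and -0.59).

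Interferon response genes and guanylate-binding proteins (GBPs) were higher in 16 of 24 and lower in 1 (medians 0.62 and 0.54), and in 13 and 0 without CSRM617 library 3. Stat2, a transducer of interferon signalling, stood at 38.5, 37.9 and 41.8 CPM with RANKL alone and 73.6, 72.2 and 74.8 CPM with CSRM617 (0.89 ± 0.06, adjusted p = 1.31e-18; 0.74 with offsets). Irf1 rose by 0.76 and 0.56 and Irf7, which overlaps Phrf1 on the opposite strand, by 0.93 and 0.62, both transcription factors of the response. The lower member was Gbp6 (-1.23 and -0.996). MHC class I and immunoproteasome genes, which present peptides to T cells, were higher in 9 of 15 and lower in none. Tapbp, which loads peptides onto MHC class I, rose by 0.84 and 0.45 and the class I genes H2-D1 and H2-Q2, which have close copies, by 0.59 and 0.26 for the first and 0.76 and 0.32 for the second. The interferon-stimulated response element (ISRE), searched as GAAA, any 2 bases and GAAA on both strands, was in 12 of the 17 interferon genes with a window (70.6%) and in 3.59% of tested genes. Of the 12 holders, 7 were higher in both fits and none was lower. Of the 12 list genes with a window that were higher in both fits, the same 7 (58.3%) held it. Holding the element thus did not go with a rise within the list. The share was 3.65% among all genes higher in both fits and 3.64% among lower genes. The 3 called holders with the smallest p are Stat2, the ubiquitin-like modifier Isg15 (1.69 and 1.50) and the RNA sensor Oas3 (0.61 and 0.33). Their matches are in capitals.
Stat2 (chr10:128270248-128270330, plus strand): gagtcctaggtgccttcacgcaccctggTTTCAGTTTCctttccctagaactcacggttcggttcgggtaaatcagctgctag
Isg15 (chr4:156200830-156200929, minus strand): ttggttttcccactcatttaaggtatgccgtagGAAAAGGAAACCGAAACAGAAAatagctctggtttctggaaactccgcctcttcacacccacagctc
Oas3 (chr5:120777680-120777779, minus strand): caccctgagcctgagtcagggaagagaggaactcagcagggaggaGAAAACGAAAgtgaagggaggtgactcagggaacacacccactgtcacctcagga

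Stem cell genes were lower in 12 of 22 and higher in 3 (medians -0.16 and -0.43). Lgr5, whose 1 allele carries the cassette, stood at 11.6, 11.6 and 10.9 CPM with RANKL alone and 5.52, 6.68 and 6.53 CPM with CSRM617. The log2 fold change was -0.85 ± 0.13 (adjusted p = 9.19e-08) and -0.73 with offsets. Prom1, a membrane glycoprotein of crypt cells, had 241, 246 and 237 CPM with RANKL alone and 127, 129 and 135 CPM with CSRM617 (-0.88 and -0.68), and Igfbp4, which binds insulin-like growth factors, 144, 144 and 138 CPM with RANKL alone and 68.5, 64.4 and 65.99 CPM with CSRM617 (-1.10 and -1.40). In each of these the groups were apart. Olfm4, a stem cell marker that Notch controls, went up (0.82 and 1.31). Wnt targets and feedback genes were lower in 8 and higher in 3 of 16. Tnfrsf19, a Wnt-induced receptor, fell from 42.3 ± 2.25 to 9.85 ± 1.15 CPM. Cd44, the hyaluronan receptor, changed by -1.19 and -0.91 and Rnf43, which removes Wnt receptors, by -0.56 and -0.90.

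Genes of fetal-like and regenerating epithelium were lower in 12 of 15 and higher in 1 (medians -0.66 and -0.70), and in 9 and 1 without CSRM617 library 3. Anxa1, a phospholipid-binding annexin, stood at 33.6, 35.1 and 35.5 CPM with RANKL alone and 9.41, 11.97 and 12.4 CPM with CSRM617 (-1.60 ± 0.09, adjusted p = 1.33e-20; -1.25 with offsets). Il1rn, the interleukin-1 receptor antagonist, had 75.1, 72.4 and 76.3 CPM with RANKL alone and 27.3, 28.5 and 31.9 CPM with CSRM617, and Ly6e, a GPI-anchored surface protein, 204, 215 and 207 CPM with RANKL alone and 144, 145 and 136 CPM with CSRM617. None of the CSRM617 values reached those of RANKL alone. Of 15 keratins 5 (33.3%) were higher and 4 (26.7%) lower, against 24.8% and 23.4% of all genes. Krt20, a marker of differentiated villus cells, rose by 1.75 and 1.73 while Krt16 fell.

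Mitochondrial genes split by genome. Of 78 nuclear genes for oxidative phosphorylation 41 were lower and 3 higher (medians -0.24 and -0.33). Their median transcript length was 913 bases. A fit with offsets for GC and length together called 43 lower and 13 higher (median -0.22), against 53 and 5 with GC offsets. Atp5c1, a subunit of ATP synthase, stood at 153, 155 and 152 CPM with RANKL alone and 92.4, 88.7 and 91.3 CPM with CSRM617 (-0.76 and -0.82), Cox6c of complex IV changed by -1.10 and -0.995, and Atp5md of ATP synthase by -1.43 and -1.43. All 7 mitochondrially encoded genes that could be tested were higher (medians 0.96 and 2.07). The other 6 had at most 10 counts in any library. Among the 7, mt-Nd4 of complex I had 3087, 3108 and 3095 CPM with RANKL alone and 6425, 6846 and 7818 CPM with CSRM617, with library 3 the highest, and a log2 fold change of 1.18 ± 0.08 (adjusted p = 0.000189). Its value with GC offsets, 2.34, rests on a trend fitted mostly on nuclear transcripts. The mt-Nd5 (1.19 and 2.18) and mt-Nd6 (0.96 and 2.16) genes overlap on opposite strands. The share of all counts on the mitochondrial genome rose with these genes, and its part in the result was not tested.

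Most cytosolic ribosomal protein genes were lower, 50 of 81 against 4 higher (medians -0.21 and -0.36; 46 against 7 without CSRM617 library 3). Of 77 mitochondrial ones 26 were lower and 4 higher, and 47 were not called in both fits (medians -0.19 and -0.18). Median transcript lengths were 886 bases for the cytosolic and 1316 for the mitochondrial ones, and 36.2% of protein-coding genes under 1 kb were lower. Offsets for GC and length together gave 53 cytosolic ones lower and 16 higher (median -0.20), against 64 and 7 with GC offsets. For the mitochondrial ones they gave 31 and 14 (median -0.14), against 37 and 7. Rps27 of the small subunit stood at 171, 169 and 173 CPM with RANKL alone and 62.2, 58.3 and 58 CPM with CSRM617 (-1.53 ± 0.04, adjusted p = 2.14e-31; -1.81 with offsets), Rps15a changed by -1.03 and -0.81 and Rps21 by -0.97 and -1.15. Long noncoding RNAs that host small nucleolar RNAs or stay in the nucleus fell alongside, with 15 of 19 lower and 1 higher. Gas5, a snoRNA host that overlaps Zbtb37 on the opposite strand, had 229, 219 and 227 CPM with RANKL alone and 133, 133 and 135 CPM with CSRM617 (-0.75 and -0.90). Among translation factors 17 were lower and 8 higher of 35, and the eIF3 complex was split, with Eif3e at -1.39 and -0.73 and Eif3a at 0.60 and 0.89. Ribosome biogenesis genes leaned the other way, with 14 higher and 6 lower of 34. Nolc1, a nucleolar chaperone, rose by 1.07 and 0.94 and Ddx21, a nucleolar helicase, by 0.69 and 0.85. Lysosomal genes were lower in 17 and higher in 1 of 34: Cd63, a membrane tetraspanin, changed by -0.63 and -0.66, Atp6v1a, a proton pump subunit, by -0.76 and -0.48, and Asah1, acid ceramidase, by -0.91 and -0.53.

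**Figure D4:**
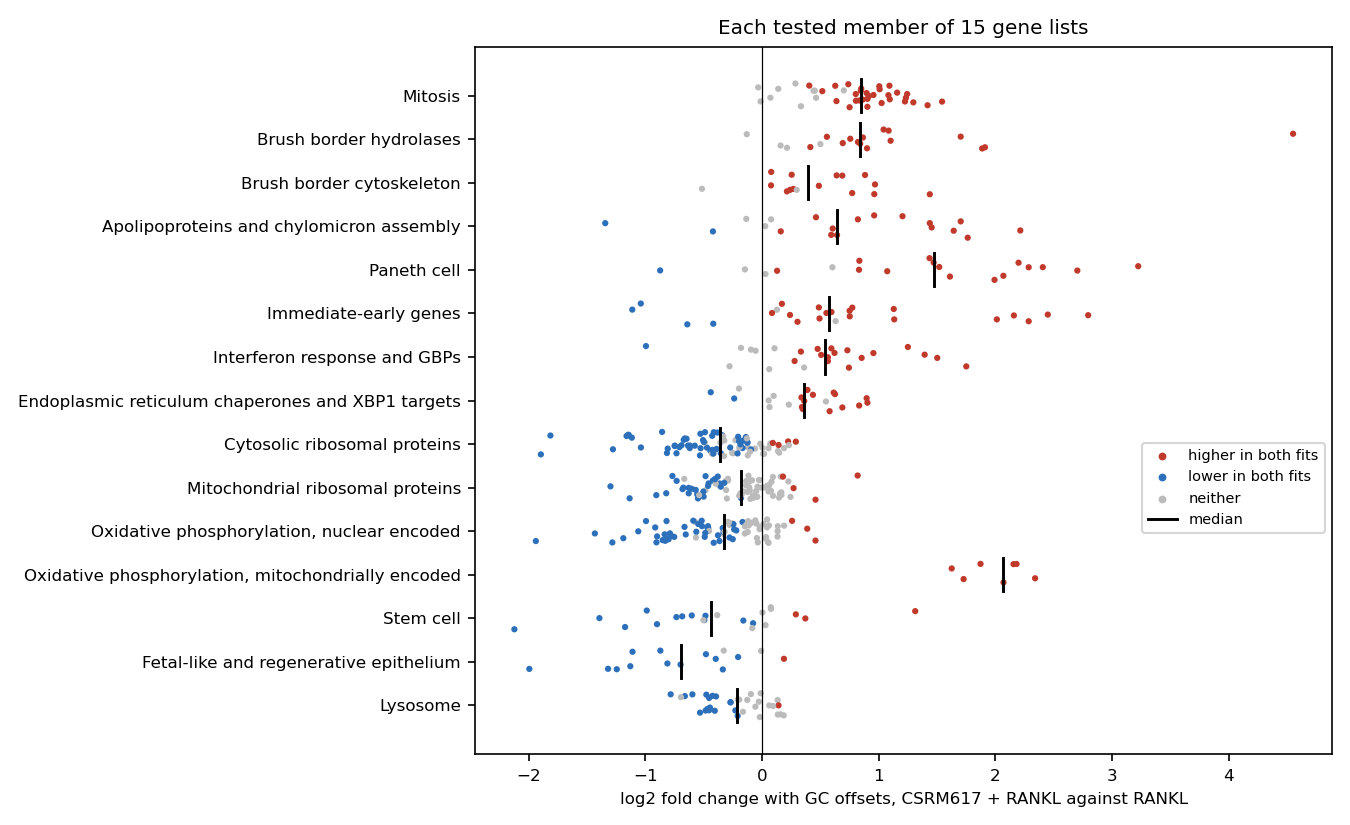
Log2 fold change with GC offsets for every tested member of 15 gene lists; red and blue members were called higher or lower in both fits, grey members were not, and black lines are medians. Mitosis, brush border and Paneth cell genes lie mostly to the right of 0, nuclear oxidative phosphorylation and ribosomal protein genes mostly to the left, and the 7 mitochondrially encoded genes apart at the right.

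M cell genes showed no shared direction, with 8 of 23 higher and 8 lower (medians 0.04 and 0.09). Gp2, the uptake receptor of mature M cells, was low in all libraries, at 1.76, 2.06 and 2.40 CPM with RANKL alone and 0.757, 0.733 and 0.645 CPM with CSRM617, and fell by 1.56 ± 0.31 (adjusted p = 2.39e-05), with -1.55 with offsets. Spib, the M cell transcription factor, stood at 226, 221 and 216 CPM with RANKL alone and 292, 289.6 and 281 CPM with CSRM617, which gave 0.38 ± 0.03 (adjusted p = 1.79e-14) but 0.09 with offsets. Sox8, which acts beside it, had 18.9, 16.2 and 16.2 CPM with RANKL alone and 20.8, 21.6 and 18.1 CPM with CSRM617. These groups overlapped. Its 0.24 ± 0.09 (adjusted p = 0.0172) turned to -0.01 with offsets, and edgeR's adjusted p was 0.0622 without library 2 of RANKL alone, 0.095 without its library 3 and 0.0987 without CSRM617 library 2. Ccl9, an M cell chemokine, changed by -0.94 and -0.46, and Rac2, a GTPase, by 0.90 and 0.71. The RANK receptor gene Tnfrsf11a was nearly level, at 236, 242 and 243 CPM with RANKL alone and 245, 244 and 250.1 CPM with CSRM617 (0.04 ± 0.03, adjusted p = 0.308), and was called higher by 0.10 with offsets (adjusted p = 0.000547). Of 25 RANK and NF-kB pathway genes 9 were higher and 3 lower: Nfkb2, a subunit of the noncanonical arm, rose by 0.83 and 0.37, Map3k14, the kinase NIK above it, by 0.89 and 0.45, and Nfkbiz, an inducible nuclear regulator, by 0.96 and 0.90.

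Onecut2, the gene of the factor that CSRM617 is described to inhibit, stood at 549.8, 541 and 548 CPM with RANKL alone and 385, 386 and 419 CPM with CSRM617. The CSRM617 values were all lower, with a log2 fold change of -0.46 ± 0.03 (adjusted p = 4.82e-18), but with GC offsets it was -0.01 (adjusted p = 0.629). With offsets for GC and length together it was -0.24 and again called lower (adjusted p = 1.5e-25), so the call depends on which offsets are used. Its messenger RNA does not measure the activity of the protein. Onecut1 had at most 2 counts in any library and Onecut3 had 1.45, 1.75 and 1.60 CPM with RANKL alone and 2.06, 1.06 and 1.37 CPM with CSRM617 (-0.15, adjusted p = 0.662). Onecut3 was -0.59 with GC offsets (adjusted p = 0.0664) and -0.71 with offsets for GC and length, where it was called lower (adjusted p = 0.0277). Hnf4a, a master factor of enterocytes, rose by 0.52 and 0.29. Cdx2, the factor of intestinal identity, had 106, 105 and 107 CPM with RANKL alone and 132, 126 and 121 CPM with CSRM617; its 0.25 became -0.14 with offsets, called in both fits in opposite directions. The ONECUT core ATCAAT or ATCGAT was in 6.58% of genes higher in both fits with a promoter window, 5.07% of lower genes and 5.8% of all tested genes.

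Several of the deepest falls were in genes that RANKL had raised in the separate comparison of RANKL with ENR medium, which shares no library with this one but whose groups also differ in GC trend. Its control is labelled as 6 days in ENR medium, and its library names begin with CVENR. The labels do not spell out whether CV stands for the same CHIR99021 and valproic acid given first. From the labels alone, those treatments and RANKL cannot be told apart. Camk2a and Gabrp had no count in any of its 3 ENR libraries, and stood at 25.4 ± 7.25 CPM and 6.71 ± 2.72 CPM with RANKL (mean ± SD, n = 3). Stra6, Enpp2 and Krt16 had 3, 1 and 1 counts over the 3 ENR libraries together, and 53.3 ± 11.4 CPM, 16.1 ± 1.22 CPM and 11.9 ± 2.53 CPM with RANKL. These 5 were picked from the genes that fell here, so they show no rule: Depp1, as deep a fall, changed by -0.77 with RANKL. In the ENR comparison the slope per percent GC was 0.0008 to 0.026 with ENR and -0.013 to -0.019 with RANKL. The 2 ribosomal RNA loci took 21.9 to 35.5% of counts with ENR and 9.71 to 10.7% with RANKL. In both measures ENR differed from RANKL in the same direction as CSRM617 from RANKL alone. The part of this in the shares below was not tested. In that comparison 56.7% of 13570 genes were called without GC offsets, 9.12% were at least 2-fold higher in both fits and 5.8% at least 2-fold lower. Of those raised that were tested here too, 304 of 1193 (25.5%) were higher with CSRM617 and 387 (32.4%) were lower, against 24% and 23.9% of the 11403 genes without such a change. Among the 667 lowered ones, 269 (40.3%) were higher and 89 (13.3%) lower. Paneth cell genes were among these: the log2 fold change with RANKL was -1.84 for Lyz1, -2.46 for Mptx2 and -2.62 for Itln1. Not all genes followed that pattern, since RANKL raised Apoa4 by 2.89 and CSRM617 raised it further.

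Some properties of transcripts that the offsets did not model went with the changes. Among protein-coding genes, the share higher in both fits climbed from 15.1% of 2050 genes with 2 to 4 exons to 55.5% of 434 genes with 33 or more, and the share lower fell from 31.5% to 10.1%. The 293 genes with a single exon did not follow this order, with 27% higher and 19.1% lower. The median with GC offsets ran from -0.16 to 0.30 from 2 to 4 exons to 33 or more, and from -0.13 to 0.12 with offsets for GC and length together. By length, the median with GC offsets was -0.28 for transcripts under 1 kb and 0.19 for those over 8 kb. Long intergenic noncoding RNAs were higher in 22 and lower in 100 of 262, and RNAs from bidirectional promoters in 0 and 17 of 53. Numbered zinc finger genes were higher in 43 and lower in 105 of 309, and in 40 and 103 without CSRM617 library 3. Their median GC content was 44.52%, and their median with GC offsets was -0.09. Their shares, 13.9% higher and 34% lower, were close to those of all genes of 44-46% GC, 14.7% and 33.3%. The part of RNA quality and library preparation in these patterns was not tested.

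The genes called in opposite directions show how far a direction can hang on the offsets. Hook1, an adaptor of endosomal transport, stood at 681, 669.8 and 681 CPM with RANKL alone and 534, 530.3 and 579.9 CPM with CSRM617, with all CSRM617 values lower, yet its -0.31 became 0.28 with offsets. The values were -0.26 and 0.59 for Cd2ap, a scaffold of the actin cytoskeleton, -0.58 and 0.27 for Cpsf6, a polyadenylation factor, -0.57 and 0.32 for Ssb, the La RNA-binding protein, -0.52 and 0.50 for Cdc73, a PAF1 complex subunit, and -0.54 and 0.28 for the glucuronosyltransferase gene Ugt2b34. All 6 have transcripts of 36.8 to 41.1% GC.

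**Figure D5:**
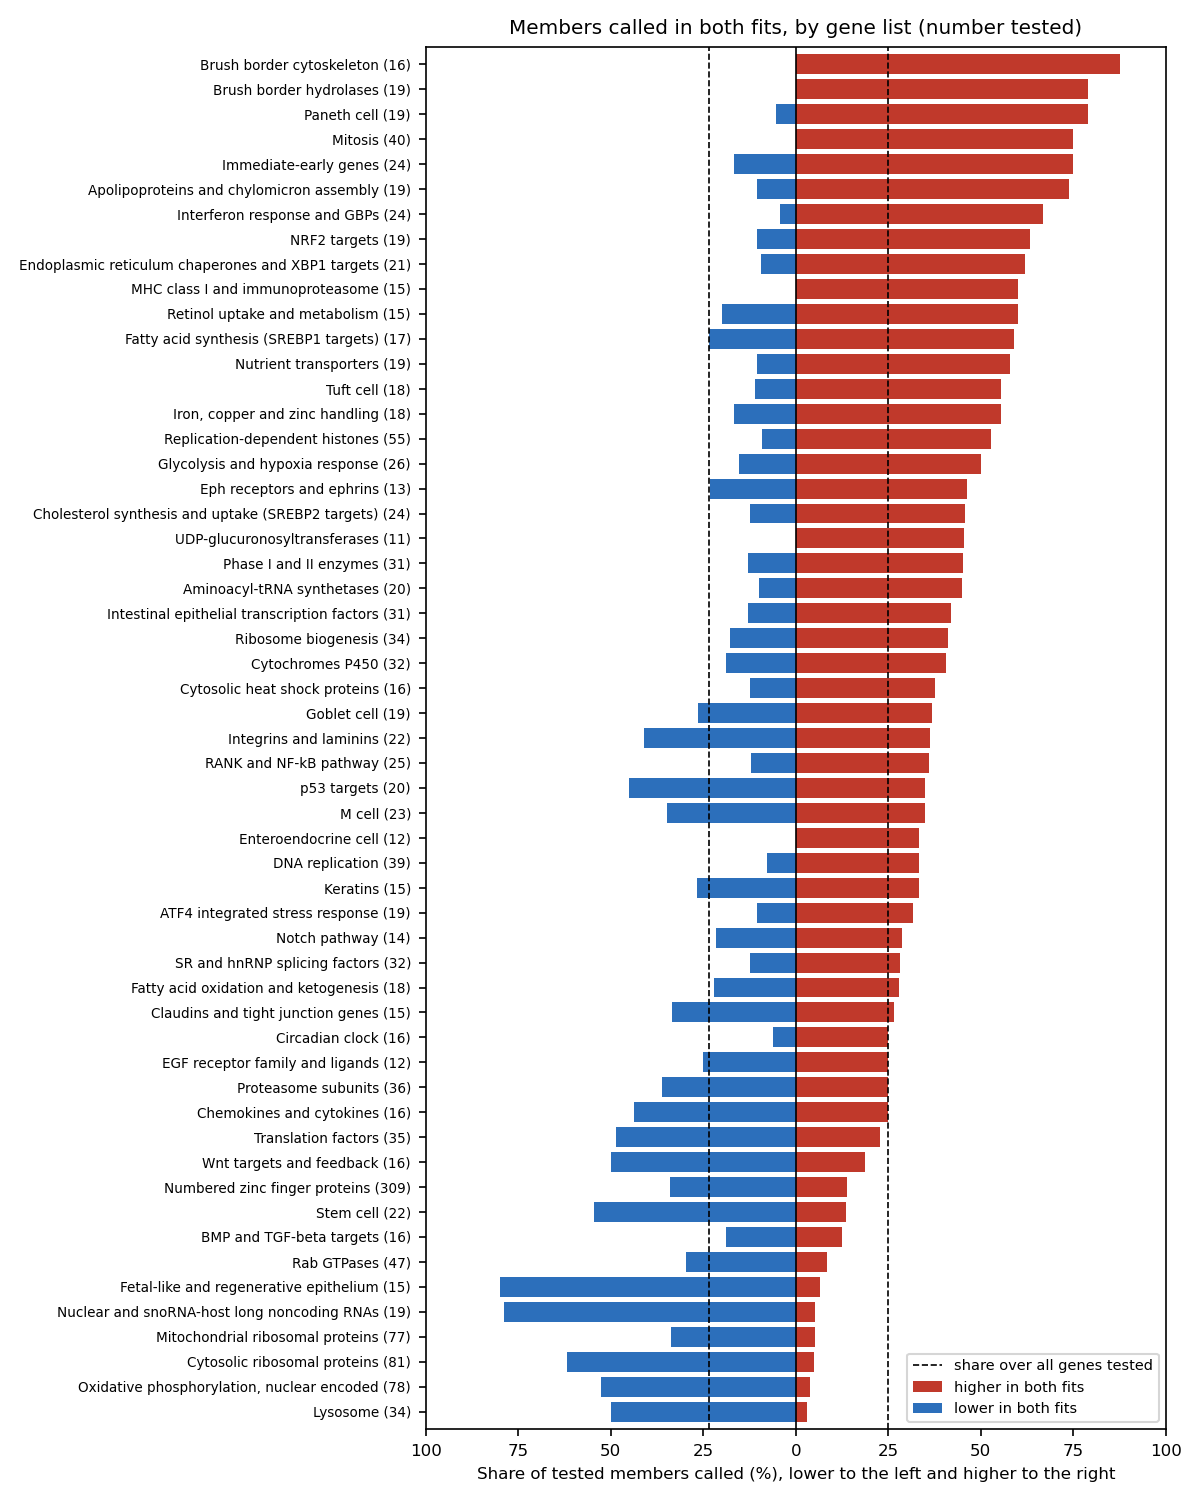
Share of the tested members of each list that was higher (red, right) or lower (blue, left) in both fits, for lists with at least 10 tested genes (number in parentheses); dashed lines mark 24.8% and 23.4%, the shares over all genes. Brush border, Paneth cell, mitosis and immediate-early lists reach furthest right, and fetal-like, snoRNA-host and ribosomal protein lists furthest left.

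Other lists are given beside the 24.8% higher and 23.4% lower over all genes. Some lay near these shares, such as Notch genes with 28.6% and 21.4%. Others did not: 50% of glycolysis and hypoxia genes were higher, and 43.8% of chemokines and cytokines were lower. Proteasome subunits were higher in 9 and lower in 13 of 36, Psmb1 of the core particle among the latter (-0.72 and -0.73). Rab GTPases of vesicle traffic were higher in 4 and lower in 14 of 47, with Rab2a at -0.91 and -0.61. Tight junction genes split 4 to 5 of 15, with Cgn, cingulin, up (1.09 and 0.81) and Ocln, occludin, down (-0.71 and -0.21). Integrins and laminins split 8 to 9 of 22, and Itgb6, a partner of the TGF-beta activating integrin, changed by -1.11 and -0.80. Notch genes split 4 to 3 of 14, with the ligand gene Dll1 (0.82 and 0.54) and the receptor gene Notch1 (1.02 and 0.64) up and the effector gene Rbpj (-0.68 and -0.33) down. In glycolysis and hypoxia genes 13 of 26 were higher and 4 lower, with the angiogenic factor gene Vegfa at 0.91 and 0.82. Chemokines and cytokines were higher in 4 and lower in 7 of 16, with Tnfsf10, the death ligand TRAIL, at -1.16 and -0.74. Intestinal transcription factors were higher in 13 and lower in 4 of 31, with Nr1i2, the xenobiotic receptor PXR, at 0.94 and 0.73 and Tcf7l2, the Wnt effector, at 0.64 and 0.74. Aminoacyl-tRNA synthetases were higher in 9 and lower in 2 of 20, with Aars at 0.96 and 0.61. BMP and TGF-beta targets were called in few cases, 2 higher and 3 lower of 16, with Bmp2 up (0.76 and 0.58) and Id2 down (-0.74 and -0.50).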

How the data were processed

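Pellets were snap frozen, RNA was extracted and depleted of ribosomal RNA, and libraries were sequenced in paired ends, per the labels' protocols. The submitters' processing notes name STAR, HTSeq 0.13.5, DESeq2 1.34.0 and the mouse build mm10. Which annotation and strand option the counting used, and which STAR version, was not given in the sources used here. The authors deposited whole-number counts per gene, the unit of the main test, and log2 values of the same libraries, used in 1 alternative. The 109 repeated symbols were kept apart by row.

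Counts were filtered with filterByExpr, scaled with TMM and tested with edgeR 4.0.16 (quasi-likelihood, limma 3.58.1, R 4.3.3) on the 6 libraries, with Benjamini-Hochberg adjustment over all genes and a threshold of 0.05. The second fit added, per library, a natural spline of log2 CPM on transcript GC content (5 degrees of freedom, genes above a mean log2 CPM of 1) as an offset. GC content, exons and length came from GENCODE M21; 203 tested symbols had no match and kept no GC offset. The fits were also run on simulated counts with known changes, with no GC trend or a linear one between the groups. Those counts held no trend in length or exons, so they cannot show how well the offsets work where such trends remain. DESeq2 1.42.0, other scaling and filters, a block for the experiment number and leaving out each library were alternatives.

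Members and gene lists were chosen with earlier results of these data known. The text names the 12 largest rises and 12 largest falls among protein-coding genes called in both fits, with a mean log2 CPM of 2 or more and groups that did not overlap, up to 3 called members per list by p, 6 genes called in opposite directions, and 12 genes always. Promoter windows are from RefSeq (GRCm38.p6). The depth, 8669153 to 14041947 counts per library, sets the precision of genes at a few CPM. Results for some genes are not reported here.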

Additional observations from a re-analysis of the deposited data

How the results depend on the processing

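Counts of genes called stayed within 1.5 times of those reported under each alternative run. Higher genes numbered 4329 with DESeq2 to 5406 with limma on the deposited log2 values, and lower genes 4118 with DESeq2 to 5497 with upper-quartile scaling. Leaving out each library gave 3273 to 3468 genes higher and 3042 to 3178 lower in both fits, and 425 to 462 and 483 to 565 by 2-fold. The replicate block gave 4977 and 5118 genes in the first fit and 3498 and 3301 in both fits. The deviations of same-numbered libraries correlated at 0.018, 0.027 and 0.0582 over 9047 genes. Not every library correlated best with its own number. Because several pairs differed by little more than counting noise, these values cannot tell whether same-numbered libraries came from the same experiment. Summing libraries 1 and 2 of each group, chosen after seeing the data, gave 3513 and 3261, and 505 and 560 by 2-fold.

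Of the genes named by the rule, 9 called in the first fit changed sign, under alternatives that take the GC trend out by construction. With GC offsets, with GC offsets and the replicate block, and with GC and length offsets, in that order, the log2 fold changes were 0.59, 0.59 and 0.50 for Cd2ap, 0.50, 0.50 and 0.28 for Cdc73, -0.14, -0.14 and -0.15 for Cdx2, 0.27, 0.27 and 0.14 for Cpsf6, 0.28, 0.28 and 0.20 for Hook1, -0.0149, -0.01672 and -0.03177 for Sox8, 0.32, 0.32 and 0.39 for Ssb, and 0.28, 0.28 and 0.25 for Ugt2b34. Fcgbp had -0.11 with GC and length offsets. Sox8 also lost its call with DESeq2 (adjusted p = 0.111) and without RANKL alone library 2 or 3 or CSRM617 library 2. Onecut2 lost its call with GC offsets (-0.01) but kept it with GC and length offsets (-0.24), under which Ephb2, Fasn, Snhg1 and Vars lost theirs and Onecut3 gained one (-0.71, adjusted p = 0.0277). Tnfrsf11a gained one with GC offsets. Among counts of list members, 119 moved by more than 1.5 times over all alternatives, mostly with offsets or from counts of a few genes. With fewer than about 1 CPM, counting error limits what can be seen.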

Other observations

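Several families outside the lists, found by the shared start of their symbols and chosen after their values were seen, leaned to 1 side. Of 10 Chd chromatin remodellers 9 were higher with CSRM617 in both fits and none was lower, with a median log2 fold change of 0.55 without and 0.54 with GC offsets. The Arid chromatin genes were higher in 8 and lower in 1 of 9, the Kmt histone methyltransferases higher in 7 of 8, and the Kat acetyltransferases higher in 6 of 8. Myosins were higher in 15 and lower in 1 of 19. The median transcript lengths of these families were 3680 to 8797 bases. With offsets for length too, the Chd median was 0.33 and the Kmt median 0.16.

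On the lower side, 7 of 9 Cops subunits of the COP9 signalosome, which removes NEDD8 from ubiquitin ligases, were lower and none was higher. Tetraspanins (Tspan), which organise membrane domains, were lower in 9 of 14, and annexins (Anxa), which bind membranes with calcium, in 7 of 11. Their median transcript lengths were 1787 to 1958 bases. The part of transcript length in these counts was not tested beyond those offsets.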
